A study of Rattus norvegicus with 13 samples.

Results

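Cells of the blood lineage reside in the heart beside the muscle, and 31 genes by which they are known were followed here in the left ventricle of pregnant rats: 9 genes used by most leukocytes, 2 integrin chains, 9 receptors and proteins of macrophages, the 3 chains of complement C1q, 3 genes of Fc receptor signaling, 2 genes of antigen processing and 3 T cell genes. They were taken by name, and each gene was read from its brightest probe set among those annotated with 1 symbol. All 31 were on the array, with 37 such probe sets between them, out of 14217 genes measured in this way and 31042 probe sets tested. The hearts came from female Sprague Dawley rats and were taken on day 20 or 21 of pregnancy. L-NAME-fed rats (4 arrays) drank water with 1 g/L of L-NAME, an inhibitor of the nitric oxide synthases, from day 1 to day 20, Met-fed rats (4 arrays) drank water with 9 g/L of L-methionine over the same days as a model of hyperhomocysteinemia (HHcy), and control rats (5 arrays) drank water with neither. These days are those of the labels, whereas the study's methods describe multiparous mothers given methionine from their first pregnancy until death, and which of these holds for the arrays is not settled. The rats' age is not given in the sources used here. Nothing in the labels says whether an array held 1 heart or a pool, so the spread between arrays may in part be technical.

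Macrophages are the most numerous leukocytes of the healthy heart. Resident macrophages take up dying cells and scavenge hemoglobin and glycoproteins through receptors such as Cd163 and Mrc1, make complement C1q, and depend on the growth factor receptor Csf1r. Monocytes that enter from the blood carry other receptors, and T cells are sparse in the unstressed myocardium. In rats, Cd4 is carried by monocytes and macrophages as well as by helper T cells, and Cd8a also by natural killer cells, so neither gene belongs to T cells alone. In whole tissue, fewer cells of a type and less RNA per cell cannot be told apart.

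The L-NAME-fed arrays stood apart from the other 9 as wholes. Their median signal over all probe sets was 34.25 to 36.91, against 25.85 to 29.25 on Met-fed and 25.73 to 27.21 on control arrays, although every array had been scaled to the same trimmed mean. The log2 ratio of the 3′ to the 5′ probe set of beta-actin, a sign of RNA integrity and labeling, was 2.48 ± 0.16 on L-NAME-fed, 3.53 ± 0.17 on Met-fed and 3.47 ± 0.14 on control arrays (SD, n = 4, 4 and 5). Over all probe sets the median log2 difference between L-NAME-fed and control arrays was 0.22, and it moved with brightness, being 0.55 in the fourth decile of mean signal and -0.27 in the brightest decile. After quantile normalization it was -0.01, and after centring each array on its median -0.21. Of the probe sets called between these groups 62.8% were higher in L-NAME-fed hearts, against 50.1% after quantile normalization and 34.9% after centring, so the calls that were lost or turned after quantile normalization are named below. The tissue matched its label, since all 6 measured cardiomyocyte genes lay above the median signal. No batch is labelled, and a batch of the arrays or a difference in RNA quality cannot be told apart from L-NAME feeding in any difference below that involves these arrays.

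So that some members can be read beside their sequence, the region from 250 bases before to 50 bases after each start was taken. It came from RefSeq (build GRCr8), where 23 of the 31 genes had an entry. The 7 printed here belong to the macrophage receptors with the largest falls in L-NAME-fed hearts (Cd163, Cd68 and Mrc1), to 2 genes with large rises (Cd37 and Cd8a) and to 2 neighboring C1q genes described below. Capitals mark GAGGAA or its reverse complement TTCCTC, the core letters of the site bound by PU.1, an ETS factor of myeloid cells. The windows are Cd163 at chr4:158770524-158770823, plus strand, and Cd68 at chr10:54882392-54882691, minus strand. Mrc1 lies at chr17:82157475-82157774, plus strand, and Cd37 at chr1:104860735-104861034, minus strand. Cd8a lies at chr4:104923866-104924165, plus strand, C1qa at chr5:154419884-154420183, minus strand and C1qb at chr5:154407778-154408077, minus strand.
Cd163: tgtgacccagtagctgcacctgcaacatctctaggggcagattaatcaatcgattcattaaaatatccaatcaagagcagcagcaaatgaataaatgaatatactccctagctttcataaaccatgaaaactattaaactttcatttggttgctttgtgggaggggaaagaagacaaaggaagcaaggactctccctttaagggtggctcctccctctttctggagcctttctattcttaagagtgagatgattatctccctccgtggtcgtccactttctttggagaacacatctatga
Cd68: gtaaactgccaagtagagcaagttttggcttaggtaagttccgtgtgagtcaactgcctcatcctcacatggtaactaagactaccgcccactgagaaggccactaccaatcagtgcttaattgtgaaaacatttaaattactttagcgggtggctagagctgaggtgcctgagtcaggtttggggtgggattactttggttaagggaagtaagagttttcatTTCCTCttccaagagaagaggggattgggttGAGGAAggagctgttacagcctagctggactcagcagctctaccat
Mrc1: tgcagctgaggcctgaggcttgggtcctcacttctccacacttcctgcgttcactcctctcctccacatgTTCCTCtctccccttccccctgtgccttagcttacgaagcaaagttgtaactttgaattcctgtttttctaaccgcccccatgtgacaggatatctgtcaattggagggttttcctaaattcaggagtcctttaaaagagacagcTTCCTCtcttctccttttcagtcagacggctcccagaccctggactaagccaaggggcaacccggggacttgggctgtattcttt
Cd37: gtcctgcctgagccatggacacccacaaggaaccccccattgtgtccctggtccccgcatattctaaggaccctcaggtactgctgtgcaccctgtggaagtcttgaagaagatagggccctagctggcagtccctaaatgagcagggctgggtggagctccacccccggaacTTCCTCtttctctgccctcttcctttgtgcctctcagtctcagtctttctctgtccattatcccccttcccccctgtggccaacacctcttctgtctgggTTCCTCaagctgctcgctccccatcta
Cd8a: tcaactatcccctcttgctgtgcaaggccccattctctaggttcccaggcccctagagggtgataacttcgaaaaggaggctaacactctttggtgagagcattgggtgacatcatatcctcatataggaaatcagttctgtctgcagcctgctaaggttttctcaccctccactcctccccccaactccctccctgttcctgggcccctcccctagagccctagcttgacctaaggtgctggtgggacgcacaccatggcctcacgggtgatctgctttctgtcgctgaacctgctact
C1qa: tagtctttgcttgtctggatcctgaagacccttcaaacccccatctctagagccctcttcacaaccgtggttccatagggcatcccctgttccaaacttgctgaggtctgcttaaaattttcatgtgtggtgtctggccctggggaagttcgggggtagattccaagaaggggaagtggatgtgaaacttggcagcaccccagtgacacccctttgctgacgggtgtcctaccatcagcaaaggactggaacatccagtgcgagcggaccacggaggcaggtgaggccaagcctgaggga
C1qb: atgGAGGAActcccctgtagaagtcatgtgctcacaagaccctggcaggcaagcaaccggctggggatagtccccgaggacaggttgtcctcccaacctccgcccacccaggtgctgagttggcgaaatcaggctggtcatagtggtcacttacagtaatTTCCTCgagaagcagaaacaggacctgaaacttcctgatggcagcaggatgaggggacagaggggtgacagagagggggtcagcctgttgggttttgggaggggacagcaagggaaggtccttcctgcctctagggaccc
The 6 letters, read on both strands, were present in 16 of the 23 promoters of these genes (69.6%), against 9239 of 33469 promoters of all genes (27.6%). They were found 2 times in each of the windows of Cd68, Mrc1, Cd37 and C1qb and not in those of Cd163, Cd8a and C1qa. Of the genes described below, 7 of 9 with a promoter entry that were lower in L-NAME-fed hearts held the letters, and 2 of 6 of those that were higher. These few genes were sorted by their calls on the deposited scale. The calls of Lyz2, Cd74, Cd52 and Cd3e were lost after quantile normalization, and that of C1qa after centring. The match describes these windows only.

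In L-NAME-fed against control hearts the leukocyte genes moved in both directions. With limma and Benjamini-Hochberg adjustment over all probe sets, 11 of the 31 were higher and 10 lower, while 28.7% of all probe sets were called higher and 17.0% lower. After quantile normalization 9 were higher and 9 lower (22.0% and 21.9% of all probe sets), and after centring 5 were higher and 14 lower (16% and 29.7% of all probe sets). The median log2 difference over the 31 was 0.10, against 0.22 over all probe sets. After quantile normalization it was 0.09, against -0.01, and after centring -0.33, against -0.21, so the order of the medians depended on the scaling. The 5 genes called higher under all 3 scalings were Coro1a, Cd37, Fcgr2b, Cd8a and Cd4, and the 7 called lower under all 3 were Ptprc, Cd48, Cd68, Cd163, Csf1r, Mrc1 and Ctss. The values of L-NAME-fed and control arrays did not overlap for 9 genes that were higher and 7 that were lower, against 25.8% and 14.5% of all probe sets. A pair of features of the arrays moved with these counts. All 7 members in the brightest decile of signal were lower, as were 1632 of the 3105 probe sets of that decile by the same test (520 were higher). Of the 31, 26 lay at or above the median signal. When only the 15521 probe sets at or above it were fitted, 10399 were called, 5651 of them higher. The shares over all probe sets include dimmer ones and are therefore not matched to the members in brightness. L-NAME-fed replicate 4 had the highest value of its group for 25 of the 29 members above background. Without that array 8 members were higher and 11 lower (26.3% and 15.7% of all probe sets). The part of either in the result was not tested.

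**Figure D1:**
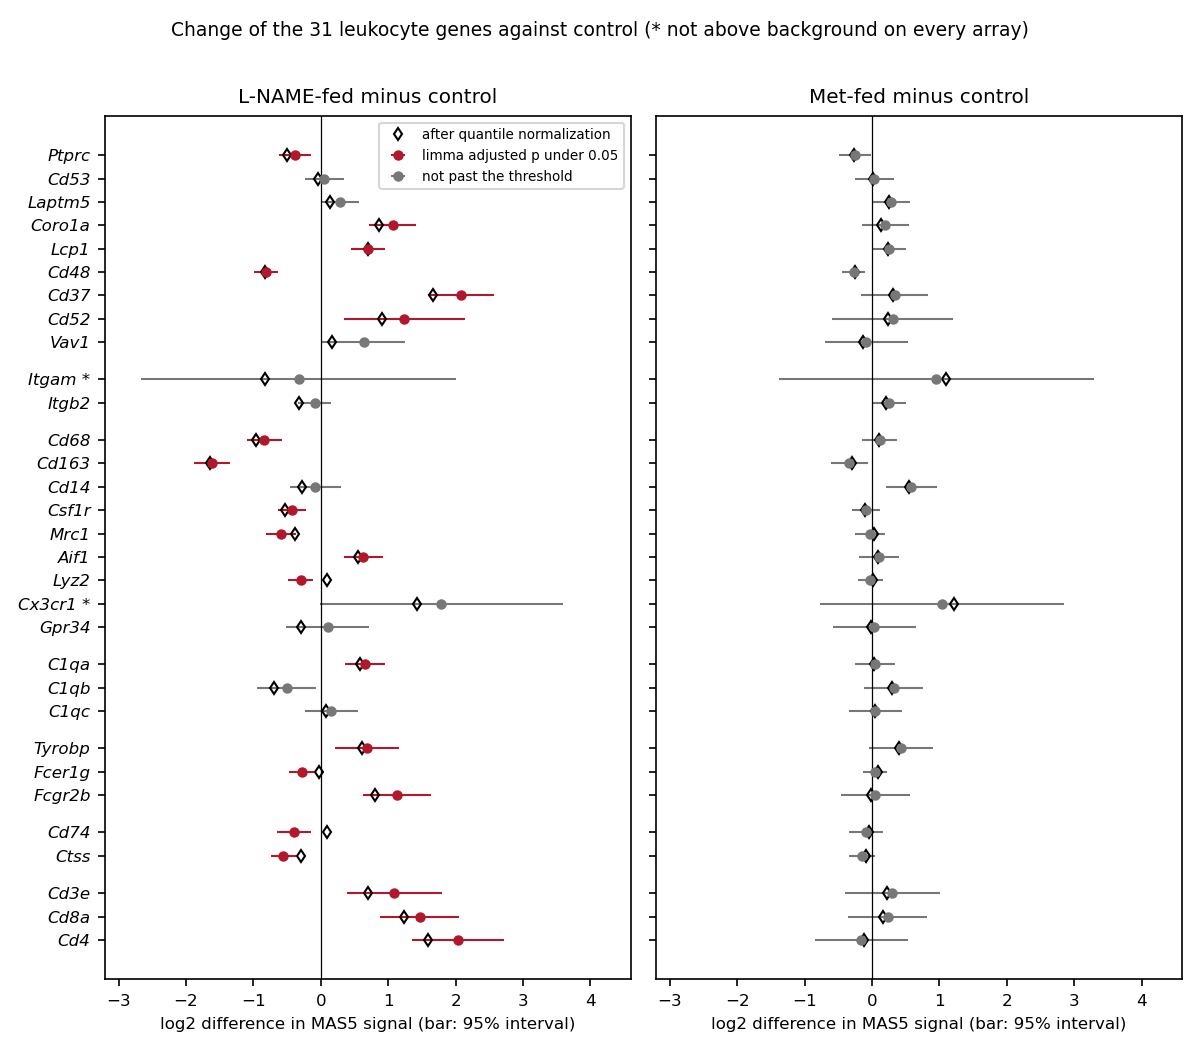
Log2 difference in MAS5 signal against control for each of the 31 genes, ordered by role, in L-NAME-fed (left) and Met-fed hearts (right). Circles are limma estimates with 95% intervals, red where the adjusted p was under 0.05, diamonds the same difference after quantile normalization, and asterisks mark Itgam and Cx3cr1, which were not above background on every array; 11 circles on the left are red above 0 and 10 below 0, and none on the right is red.

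The largest falls among the 31 genes were those of the macrophage proteins Cd163 and Cd68. Cd163, the scavenger receptor for hemoglobin bound to haptoglobin, read 231.2, 290.0, 322.5 and 353.5 signal units on the 4 L-NAME-fed arrays, 726.1, 660.5, 676.4 and 819.6 on the Met-fed arrays and 904.3, 1057, 755.9, 1029 and 814.2 on the 5 control arrays (replicates in the order of the labels, as in all lists below). All 4 L-NAME-fed values lay below the lowest control value. The log2 difference was -1.61 ± 0.13 (SE, adjusted p = 7.43e-08), and -1.64 after quantile normalization. Cd68, a glycoprotein of lysosomes in phagocytes, read 199.5, 205.3, 201 and 313.9 in L-NAME-fed, 449.4, 391.6, 448.4 and 460.3 in Met-fed and 401.6, 381.3, 408.8, 379 and 451.5 in control hearts. Replicate 4 was high among the L-NAME-fed values, and still below every control value. Its difference was -0.84 ± 0.12 (adjusted p = 3.36e-05), and -0.999 without replicate 4. Mrc1, the mannose receptor of resident and alternatively activated macrophages, read 821.9, 894.6, 979.6 and 1165 in L-NAME-fed, 1534, 1259, 1328 and 1554 in Met-fed and 1502, 1528, 1238, 1627 and 1351 in control hearts, again with no overlap between L-NAME-fed and control. It was lower, with a difference of -0.59 ± 0.11 (adjusted p = 0.000238), and of -0.38 after quantile normalization. Csf1r, the receptor for the growth factors of macrophages, ranged over 255.3 to 307.1 in L-NAME-fed and 324.3 to 426.3 in control hearts, a difference of -0.43 ± 0.10 (adjusted p = 0.00176).

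The other macrophage genes gave a mixed picture. Aif1, an actin-bundling protein of macrophages, was higher in L-NAME-fed hearts (367.9 to 506.7, against 219.2 to 352.4 in control hearts), by 0.63 ± 0.14 (adjusted p = 0.00124), and after quantile normalization by 0.55, though not after centring. Lyz2, lysozyme of macrophages and neutrophils, read 1569, 1666, 2013 and 2034 in L-NAME-fed, 2043, 2075, 2516 and 2175 in Met-fed and 2143, 2314, 2025, 2363 and 2313 in control hearts. It was lower by the deposited scale (-0.30 ± 0.09, adjusted p = 0.0111) and 0.09 above 0 after quantile normalization, where it was not called. Cd14, the co-receptor for bacterial lipopolysaccharide, differed from control by -0.09 ± 0.18 (adjusted p = 0.734) and is described with the Met-fed hearts. Gpr34, a receptor of microglia and macrophages for lysophosphatidylserine, read 31.59, 30.63, 39.61 and 56.48 in L-NAME-fed, 56.16, 24.17, 27.53 and 48.91 in Met-fed and 34.69, 22.22, 43.89, 36.79 and 47.31 in control hearts. All 3 groups overlapped, and the difference was 0.10 ± 0.29 between L-NAME-fed and control hearts (adjusted p = 0.811) and 0.04 ± 0.29 between Met-fed and control hearts (adjusted p = 0.978). Cx3cr1, the fractalkine receptor of monocytes and resident macrophages, read 3.553, 6.507, 2.382 and 4.28 in L-NAME-fed, 3.817, 3.083, 2.589 and 0.9824 in Met-fed and 0.449, 0.1558, 1.765, 3.143 and 4.907 in control hearts. These signals exceeded the highest of 27 probe sets for bacterial genes, taken here as background, on 4 of 13 arrays, so no fold is given.

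**Figure D2:**
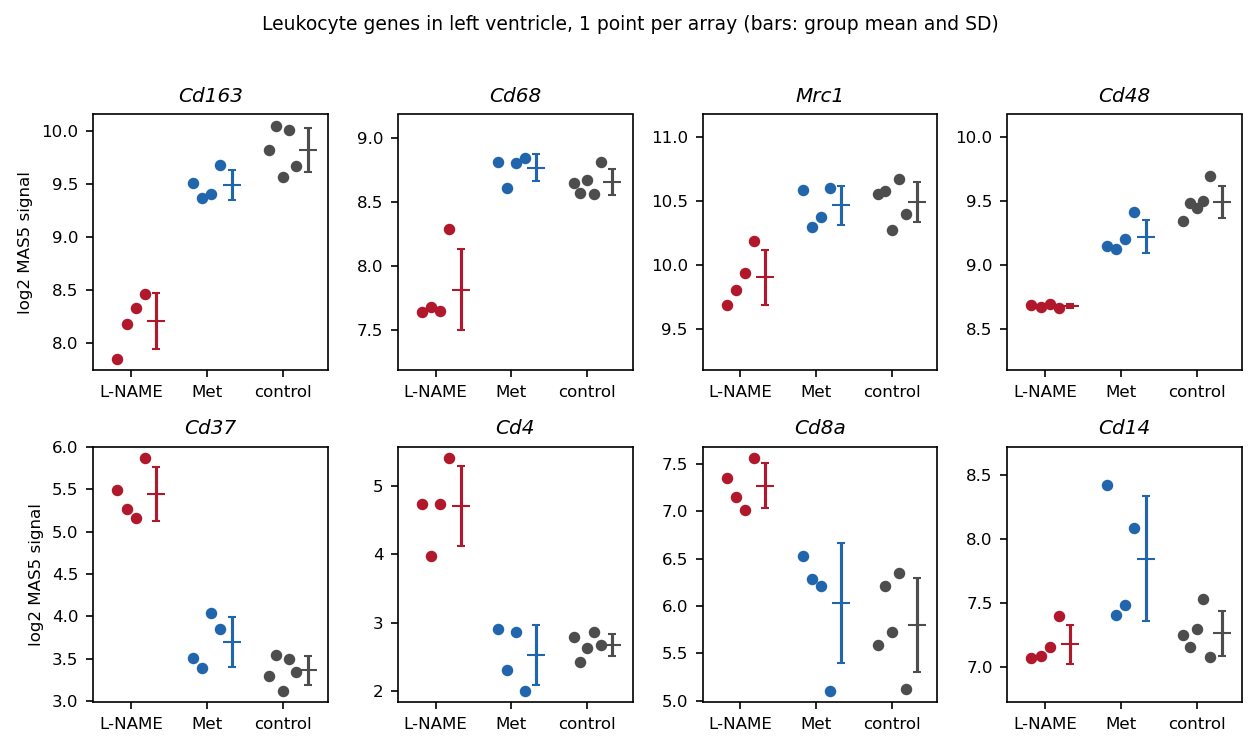
Log2 MAS5 signal of 8 leukocyte genes on each array, with L-NAME-fed (red), Met-fed (blue) and control arrays (gray) from left to right and the group mean with its SD beside the points. In Cd163, Cd68, Mrc1 and Cd48 every L-NAME-fed point lies below every control point, in Cd37, Cd4 and Cd8a every one lies above, and in Cd14 the highest points are Met-fed.

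Among the genes that most leukocytes share, 4 of 9 were higher and 2 lower in L-NAME-fed hearts (3 and 2 after quantile normalization). Of all probe sets 28.7% were called higher and 17.0% lower, and 22.0% and 21.9% after quantile normalization. Cd37, a tetraspanin of mature lymphocytes and myeloid cells, read 45.09, 38.45, 35.63 and 58.27 in L-NAME-fed, 11.33, 10.51, 16.41 and 14.45 in Met-fed and 9.846, 11.67, 8.695, 11.3 and 10.16 in control hearts. The lowest L-NAME-fed value lay above the highest of the other 9 arrays, and the log2 difference was 2.08 ± 0.23 (adjusted p = 2.12e-06) and 1.67 after quantile normalization. Coro1a, an actin regulator of leukocytes, was higher by 1.07 ± 0.16 (adjusted p = 5.58e-05), and by 0.88 without replicate 4, which read 263.8 where the other 3 L-NAME-fed arrays read 151.4 to 164.8. Lcp1, the actin bundler L-plastin, was higher by 0.71 ± 0.12 (adjusted p = 0.000133), and by 0.28 and not called after centring. Cd52, a small glycoprotein of lymphocytes and monocytes, was higher by 1.23 ± 0.42 (adjusted p = 0.0249). The call of Cd52 was lost after quantile normalization, after centring and without the variance trend. It was also lost without control replicate 1 or 3 or L-NAME-fed replicate 3 or 4 (1.04 to 1.18). Cd48, a ligand for receptors of the SLAM family, moved the other way, with 410.6, 407.7, 413.3 and 404.3 in L-NAME-fed, 565.7, 557.2, 588.2 and 680.4 in Met-fed and 650.4, 717, 695.1, 722.4 and 826.2 in control hearts. The 4 L-NAME-fed values lay close together, between 404.3 and 413.3, below all 9 other arrays, at -0.82 ± 0.08 against control (adjusted p = 8.58e-07). Ptprc, the phosphatase CD45 of all nucleated blood cells, read 233, 270.4, 244.6 and 297.5 in L-NAME-fed, 309.2, 259.2, 317.8 and 256.4 in Met-fed and 285.6, 323.1, 344, 372 and 383 in control hearts. It was lower in L-NAME-fed hearts by this probe set (-0.38 ± 0.11, adjusted p = 0.00943), with values that overlapped. Laptm5, a lysosomal membrane protein of blood cells, read 216.9, 218, 212.6 and 328.6 in L-NAME-fed, 244.6, 243.7, 246.7 and 225.8 in Met-fed and 226.4, 163.7, 199.2, 216.2 and 183.4 in control hearts, and differed by 0.29 ± 0.13 between L-NAME-fed and control (adjusted p = 0.0900). Cd53 and Vav1 were not called (0.05 ± 0.14 and 0.64 ± 0.29). Of the integrin chains, Itgb2, the common beta chain of leukocyte integrins, read 100.5, 117.7, 104.2 and 129.5 in L-NAME-fed, 148.5, 128.2, 143.4 and 154.4 in Met-fed and 127.4, 124, 108.6, 133.3 and 108.8 in control hearts (-0.09 ± 0.12, adjusted p = 0.543, but -0.32 and called lower after quantile normalization), and Itgam was above background on only 5 of 13 arrays, at 0.229 to 12.9 units over all arrays.

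The T cell genes were higher. Cd8a, the alpha chain of the CD8 co-receptor, read 163.2, 142.4, 129.4 and 188.4 in L-NAME-fed, 92.55, 77.73, 74.03 and 34.41 in Met-fed and 48.04, 74.35, 52.97, 81.35 and 34.89 in control hearts. No L-NAME-fed value overlapped with the other groups, and the difference against control was 1.47 ± 0.28 (adjusted p = 0.000355) and 1.23 after quantile normalization. Cd4 read 26.7, 15.7, 26.61 and 42.47 in L-NAME-fed, 7.473, 4.95, 7.299 and 4.002 in Met-fed and 6.911, 5.375, 6.205, 7.247 and 6.35 in control hearts, a difference of 2.04 ± 0.32 (adjusted p = 7.01e-05) and of 1.59 after quantile normalization. The Met-fed and control values of Cd4, at 4.00 to 7.47, were close to the background, which reached 4.96 on 1 array. Cd3e, the epsilon chain of the T cell receptor complex, read 45.13, 43.97, 41.42 and 68.59 in L-NAME-fed, 17.78, 49.74, 35.83 and 19.92 in Met-fed and 14.41, 17.41, 28.59, 39.75 and 22.19 in control hearts. It was higher by 1.09 ± 0.33 (adjusted p = 0.0131), and was no longer called after quantile normalization, after centring or without replicate 4, where the difference was 0.92.

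The genes read by several probe sets gave unequal values, so a difference stands for its probe set and not for every transcript of the gene. The second probe set of Laptm5 was higher in L-NAME-fed hearts by 1.81 ± 0.16 (148.5 to 242.1, against 43.5 to 55.9 in control hearts, adjusted p = 1.88e-07), where the first had differed by 0.29. The dimmer probe set of Cd3e was higher at least 8.07-fold (30.2 to 68.3, against 2.81 to 6.95, adjusted p = 3.86e-06). It was above background on 3 of 5 control arrays, with the fold taken against the background on the others. Such a fold, here and below, is a lower bound on the deposited scale only, and was not tested. The adjusted p given with it is limma's for the deposited signals. Of the 2 further probe sets of Cd8a one was higher at least 5.79-fold (20.8 to 35.1, against 0.882 to 6.36, adjusted p = 0.000165) and was above background on 2 of 5 control arrays, and the other, above background on 3 of them, was not called (adjusted p = 0.0603). The second probe set of Ptprc pointed the other way from the first, at 0.77 ± 0.34 (18.19 to 24.48, against 4.79 to 16.72 in control hearts, adjusted p = 0.0776). Averaged over its probe sets Ptprc was 0.19 above control, so its fall rests on the brighter probe set. The second probe set of Aif1 was near background.

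Complement C1q is built from the products of C1qa, C1qb and C1qc, neighbors on chromosome 5 in the order C1qb, C1qc, C1qa, and starts the classical pathway. In L-NAME-fed hearts the 3 probe sets differed. C1qa read 384.4, 338.9, 423.1 and 511.2 in L-NAME-fed, 346.7, 221.1, 226.4 and 298.2 in Met-fed and 298.5, 255.1, 238.6, 258 and 251.4 in control hearts, and was higher than control by 0.66 ± 0.14 (adjusted p = 0.00110, not called after centring). C1qc read 305.2, 302.6, 355.7 and 475.8 in L-NAME-fed, 467.4, 284, 265.1 and 331.2 in Met-fed and 434.5, 310.8, 254.7, 338.6 and 276.1 in control hearts, a difference of 0.16 ± 0.18 (adjusted p = 0.526). C1qb read 121.7, 109.8, 155.8 and 168.2 in L-NAME-fed, 349.9, 180.4, 203.6 and 267.4 in Met-fed and 254.2, 221.3, 132.5, 186.4 and 197 in control hearts. The difference of -0.50 ± 0.21 missed the threshold (adjusted p = 0.0568) and passed it after quantile normalization (-0.70, adjusted p = 0.0106) and without L-NAME-fed replicate 4 (-0.60), control replicate 3 (-0.64) or Met-fed replicate 1 or 2, whose arrays enter the fit through its estimate of the spread. C1qa and C1qb were added to the genes given array by array after their values were seen.

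**Figure D3:**
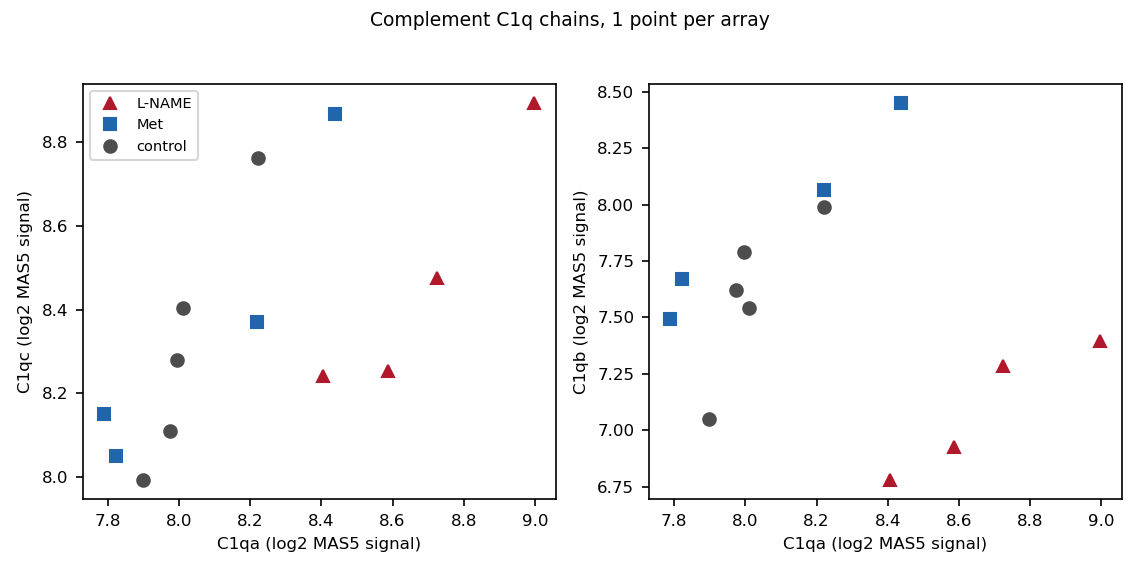
Log2 MAS5 signal of C1qc (left) and C1qb (right) against C1qa, with 1 point per array for L-NAME-fed (triangles), Met-fed (squares) and control arrays (circles). The 4 L-NAME-fed arrays lie to the right of all or all but 1 of the others, and in the right panel also below all or all but 1 of them.

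The adaptors and Fc receptor also split. Tyrobp (DAP12), which carries signals of many myeloid receptors, was higher in L-NAME-fed hearts by 0.69 ± 0.22 (276.6 to 572.3, against 231.8 to 375.7 in control hearts, adjusted p = 0.0185), a call lost without replicate 4 (0.55), after centring (0.26), in the methods' t-test and without the variance trend. Fcgr2b, the inhibitory Fc gamma receptor, was higher by 1.13 ± 0.24 (68.9 to 89.1, against 31.4 to 40.8, adjusted p = 0.000978). Fcer1g, the common gamma chain of Fc receptors, read 1070.0, 1038, 1240.0 and 1423 in L-NAME-fed, 1488, 1471, 1620.0 and 1381 in Met-fed and 1474, 1383, 1419, 1458 and 1487 in control hearts. It was lower by the deposited scale (-0.29 ± 0.09, adjusted p = 0.0114), a call lost without L-NAME-fed replicate 2 (-0.22), and at -0.02 after quantile normalization. Of the genes of antigen processing, Cd74, the invariant chain that escorts MHC class II, read 2204, 2241, 2554 and 2295 in L-NAME-fed, 2130.0, 3554, 3510.0 and 2559 in Met-fed and 3209, 3154, 3094, 2885 and 2970.0 in control hearts. The L-NAME-fed values lay below all control values (-0.40 ± 0.12, adjusted p = 0.0118), yet after quantile normalization the difference was 0.09 and not called. Ctss, cathepsin S, which cuts the invariant chain, was lower under all 3 scalings, at -0.56 ± 0.09 (1061 to 1374, against 1604 to 1914 in control hearts, adjusted p = 7.08e-05) and -0.29 after quantile normalization.

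**Figure D4:**
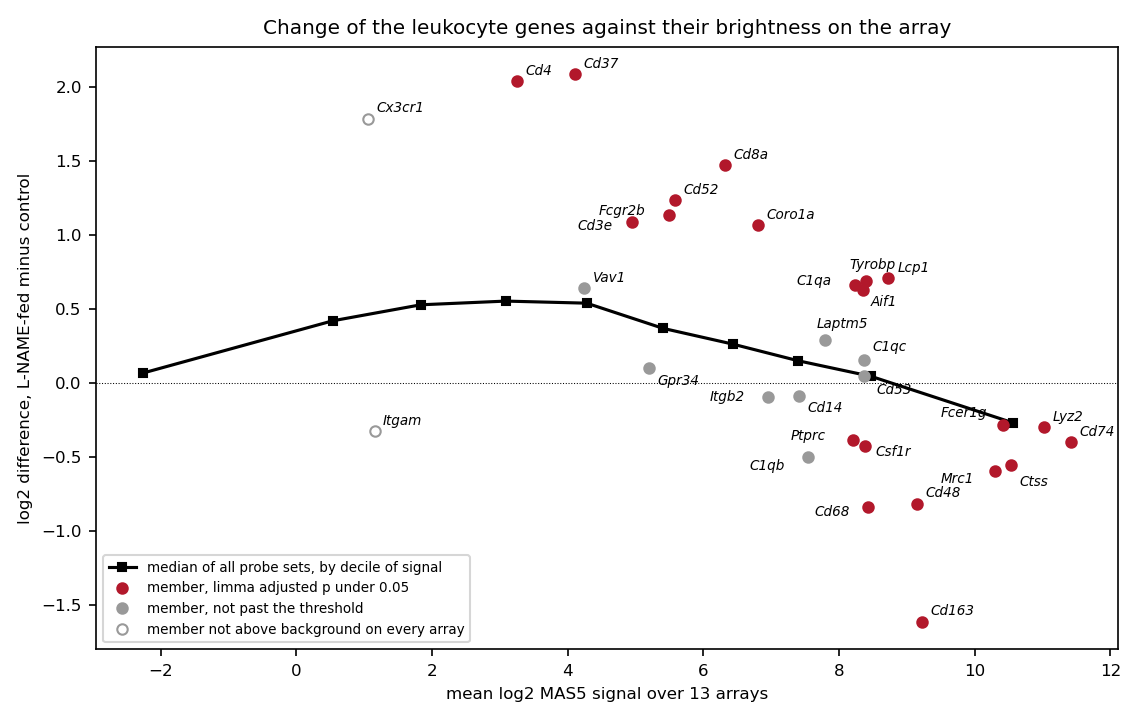
Log2 difference between L-NAME-fed and control hearts against mean log2 MAS5 signal over 13 arrays for the 31 genes (circles), with the median difference of all probe sets in each decile of signal (black squares, at the middle of the decile's range). Members in the brightest decile lie near or below the black line, which falls to -0.27 there, while Cd37, Cd4, Cd8a and Coro1a lie above it and Cd163, Cd68 and Cd48 below it.

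Set directly against Met-fed hearts, L-NAME-fed hearts had 8 of the 31 genes higher and 11 lower (25.4% and 14.9% of all probe sets were called higher and lower), and 8 higher and 8 lower after quantile normalization (18.1% and 18.5%). Over all probe sets called in this comparison 63.1% were higher in L-NAME-fed hearts, against 49.5% after quantile normalization and 34.4% after centring. When only the 15521 probe sets at or above the median signal were fitted, 9327 were called, 5008 of them higher. Coro1a, Cd37, Fcgr2b, Cd8a and Cd4 were called higher under all 3 scalings, and Cd48, Itgb2, Cd68, Cd163, Cd14, Csf1r, Mrc1 and C1qb lower. Cd163 differed by -1.28 ± 0.13 (adjusted p = 2.08e-06), Cd68 by -0.95 ± 0.13 (adjusted p = 2.64e-05) and Cd37 by 1.75 ± 0.24 (adjusted p = 3.34e-05). C1qb was lower than in Met-fed hearts, at -0.82 ± 0.22 (adjusted p = 0.00625), and Cd14 at -0.67 ± 0.19 (adjusted p = 0.00927). In the methods' t-test the calls of C1qb, Cd14 and Fcgr2b were lost, as were those of Lcp1, Lyz2, C1qa and Fcer1g. Itgb2 (-0.35 ± 0.12, adjusted p = 0.0299) was no longer called without any 1 of Met-fed replicates 1, 3 and 4 and L-NAME-fed replicates 1 and 3 (-0.35 to -0.30), and Lyz2 (-0.28 ± 0.09) without Met-fed replicate 3 or L-NAME-fed replicate 1 or 2 (-0.24 to -0.21). These comparisons share the L-NAME-fed arrays with those against control.

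Met-fed hearts were set against control hearts to ask whether HHcy changed the leukocyte genes. None of the 31 passed the adjusted threshold in limma, and neither did any of the 31042 probe sets (0.0%). The median log2 difference over the 31 was 0.05, against 0.00 over all probe sets. At an unadjusted p under 0.05, limma had 3 members higher and 3 lower, where 5.72% of all probe sets were higher and 4.97% lower. No member had Met-fed values without overlap with control, as 1.34% of all probe sets had in the higher and 1.55% in the lower direction. Cd14 read 134.2, 135.6, 142.3 and 168.3 in L-NAME-fed, 342.1, 169, 178.6 and 271.3 in Met-fed and 152.1, 142.4, 157.4, 184.5 and 134.7 in control hearts. Met-fed replicates 1 and 4 were the 2 highest values of all 13 arrays, and the other 2 lay within the control range. The difference of 0.59 ± 0.18 did not pass correction (exact permutation p = 0.0317, limma adjusted p = 0.305), and it was 0.40 without Met-fed replicate 1. Itgb2 differed by 0.26 ± 0.12 (exact permutation p = 0.0317, limma adjusted p = 0.448) and Laptm5 by 0.29 ± 0.13 (exact permutation p = 0.0397, limma adjusted p = 0.455). On the lower side, Cd48 differed by -0.27 ± 0.08 (exact permutation p = 0.0238, limma adjusted p = 0.303), Cd163 by -0.33 ± 0.13 (exact permutation p = 0.0476, limma adjusted p = 0.377) and Ptprc by -0.26 ± 0.11 (exact permutation p = 0.0714, limma adjusted p = 0.433). In each of these the groups overlapped by at least 1 array. The other 25 members had smaller or less certain differences, and for Mrc1, for example, the 95% interval ran from -0.26 to 0.20. Met-fed replicate 1 had the highest value of its group for 13 of 29 members and Met-fed replicate 2 the lowest for 14.

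To see whether leukocyte genes moved together from heart to heart, their log2 signals were correlated over the 9 Met-fed and control arrays. The L-NAME-fed arrays formed a cluster of 4, too few for a correlation of their own, and were not pooled. Of 13 pairs chosen by function, 4 passed an exact permutation test of Pearson's r after Benjamini-Hochberg adjustment over the 13. C1qa and C1qc had r = 0.90 (Spearman's rho 0.87), C1qa and C1qb r = 0.85 (rho 0.78), C1qb and C1qc r = 0.83 (rho 0.70) and Coro1a and Lcp1 r = 0.85 (rho 0.83), each with an exact adjusted p of 0.0128. By Spearman's rho none of the 4 passed (exact adjusted p = 0.0537 to 0.141). Leaving out the 2 arrays farthest from the median of the first gene, r was 0.72, 0.63, 0.61 and 0.62 in the same order. Without Met-fed replicate 1, which was high for all 3 C1q chains, no pair passed. Of these pairs Coro1a and Lcp1 had r = 0.71 after quantile normalization and did not pass there (exact adjusted p = 0.0985). Cd163 and Mrc1 had r = 0.71 (rho 0.62, exact adjusted p = 0.106). They passed within groups, at 0.90 (permutation adjusted p = 0.00814), and after centring, at 0.78 (exact adjusted p = 0.0373). The within-group test shuffled deviations from group means over all 9 arrays and not inside each group, so its p is approximate. After quantile normalization the r of Cd163 and Mrc1 was 0.53 and they did not pass (exact adjusted p = 0.288). Tyrobp and Fcer1g, which pair with overlapping sets of receptors, had r = 0.49 (rho 0.63, exact adjusted p = 0.298) on the deposited scale. After quantile normalization they had r = 0.90 and passed (exact adjusted p = 0.00641). They did not pass after centring (r = 0.16) or within groups (r = 0.40). Ptprc had r = -0.52 with Laptm5 (rho -0.57, exact adjusted p = 0.298) and 0.49 with Cd53 (rho 0.47, exact adjusted p = 0.298), and Cd3e had 0.37 with Cd8a (rho 0.28, exact adjusted p = 0.421). The remaining 4 pairs had r between 0.07 and 0.45 (exact adjusted p = 0.325 to 0.856).

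Over all 325 pairs of the 26 members at or above the median signal, the median r was 0.15, against 0.00 over all pairs of the 9393 genes of that brightness, and 18.15% of member pairs exceeded 0.5, against 11.63% of all pairs. These are descriptions, since pairs share arrays and genes. The arrays did not order the members as 1 block. Among the C1q chains, Tyrobp, Coro1a, Lcp1, Cd14 and Itgb2 the r of single pairs ran from 0.28 (Coro1a and Itgb2) to 0.90, with Tyrobp closest to Coro1a (r = 0.88) and Cd14 to Itgb2 (r = 0.80). Cd48, Ctss and Ptprc ran with each other (Cd48 and Ctss, r = 0.80, Cd48 and Ptprc, r = 0.64), and had median correlations of -0.25, -0.20 and -0.02 with the other members. Both groupings were picked from these same correlations and not fixed beforehand, so their signs are no test. Cd74 had a median r of -0.43 with the rest, and Cd3e of -0.25. With both groups centred on their own means the median r over the 325 pairs was 0.15, and after quantile normalization 0.14.

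**Figure D5:**
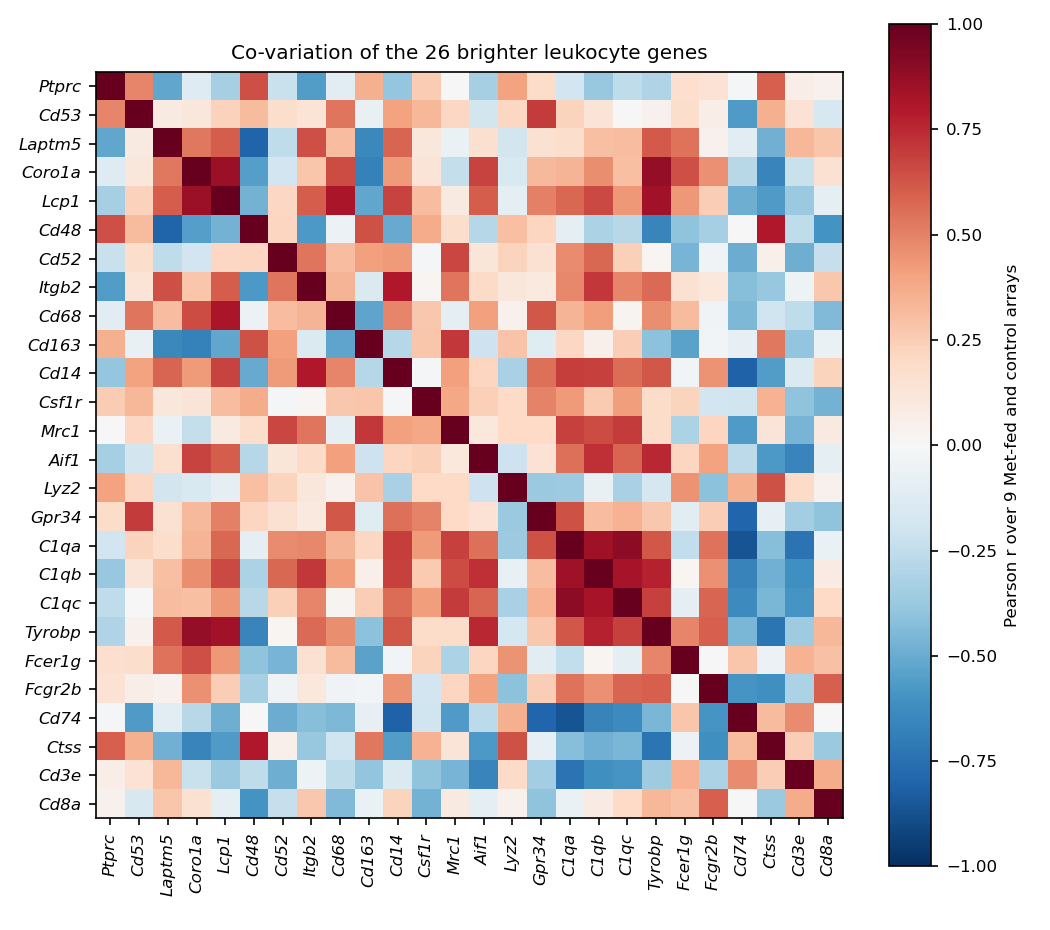
Pearson r between the log2 MAS5 signals of each pair of the 26 members at or above the median signal, over the 9 Met-fed and control arrays, from -1 (blue) to 1 (red), in the order of their roles. A red block marks the 3 C1q chains, and the rows of Cd74, Ctss and Cd48 are mostly blue.

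Genes of the same cells outside the 31 were read from lists made in the same way. Their counts stand beside 28.7% of all probe sets called higher and 17.0% lower in L-NAME-fed hearts. After quantile normalization these shares were 22.0% and 21.9%, and several of the small lists lay near them. Of 19 other monocyte and macrophage genes 8 were higher and 4 lower in L-NAME-fed than in control hearts (7 and 5 after quantile normalization), with a median of 0.27. Irf8, a transcription factor of monocytes and dendritic cells, was higher by 1.71 ± 0.17 (adjusted p = 5.29e-07) and Ccr2, the receptor that draws monocytes out of bone marrow, at least 4.32-fold (adjusted p = 2.65e-05). Ccr2 averaged 18.0 units in L-NAME-fed and 3.57 in control hearts, where it was above background on 2 of 5 arrays. Its fold was taken against the background on the others, while its adjusted p is limma's for the deposited signals. After quantile normalization the log2 difference of Ccr2 was 1.90 and still called. In contrast, Lyve1, a hyaluronan receptor of lymphatic endothelium and resident macrophages, was lower, at -0.81 ± 0.12 (adjusted p = 5.15e-05). Of 7 MHC class II genes 2 were higher and none lower (2 and 1 after quantile normalization, the lower being Ciita, the activator of MHC class II transcription, at -1.44), RT1-Da by 2.41 ± 0.21 (adjusted p = 1.64e-07) and RT1-Ba by 1.84 ± 0.31 (adjusted p = 0.000143), and the summed signal of the list was 2203 to 4161 in L-NAME-fed, 954.9 to 1982 in Met-fed and 1242 to 1694 in control hearts. Of 5 dendritic cell genes 3 were higher (2 of them, Batf3 and Flt3, above background on 1 of 5 control arrays) and 1, the integrin chain Itgax, lower (-1.39 ± 0.16, adjusted p = 3.04e-06). Of 13 other T and NK cell genes 5 were higher, among them Cd2, an adhesion receptor (0.84 ± 0.21, adjusted p = 0.00318), and 1 was lower, the chemokine Ccl5 (-0.77 ± 0.19, adjusted p = 0.00279). After quantile normalization none of the 13 was called higher and 1 was called lower. The summed signal of the 3 T cell members was 197.4 to 299.5 in L-NAME-fed, 58.3 to 132.4 in Met-fed and 63.4 to 128.3 in control hearts, and that of the 13 other T and NK genes 801.9 to 1336, 674.5 to 1018 and 780.4 to 1234. All 7 measured B cell genes lay under the median signal, and none was called in either direction, while after quantile normalization 1, Jchain, which joins antibody units, was called lower (-1.46). Of 8 neutrophil and 8 mast cell genes 2 each were called higher (1 and 0 after quantile normalization). Of 10 signaling proteins of leukocytes 2 were higher and 1 lower (1 and 2 after quantile normalization), and one of the higher was the phosphatase Ptpn6 (0.80 ± 0.12, adjusted p = 4.95e-05).

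Markers of the other cells of the ventricle moved beside these. All 6 cardiomyocyte genes were lower in L-NAME-fed than in control hearts (4 of 6 after quantile normalization), with a summed signal of 13140 to 15120 in L-NAME-fed, 16980 to 23670 in Met-fed and 20940 to 22700 in control hearts. Of 6 endothelial genes 4 were lower (3 after quantile normalization), and of 6 fibroblast genes 2 (2 after quantile normalization). Col1a1, of the fibroblast list, was then called higher (0.72, adjusted p = 0.0105), and not on the deposited scale (0.525, adjusted p = 0.0508). Of all probe sets 28.7% were called higher and 17.0% lower, and 22.0% and 21.9% after quantile normalization. The cardiomyocyte genes lay in the brightest decile of signal, where 1632 of 3105 probe sets were called lower and 520 higher. The summed signal of the 9 macrophage receptors and proteins was 3690 to 4910 in L-NAME-fed, 5182 to 5983 in Met-fed and 5216 to 6231 in control hearts, and that of the 9 genes shared by most leukocytes was 1927 to 2608, 1819 to 2154 and 1979 to 2287. The part of these markers in the differences between groups was not tested.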

How the data were processed

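Per the labels, total RNA of left ventricles from 13 rats or groups of rats was hybridized to Affymetrix Rat Genome 230 2.0 arrays, and the authors computed MAS5 signals (version not given in the sources used here). The deposited values are linear intensity per probe set, scaled so that the mean without the top and bottom 2% was the same on every array. Of 31099 probe sets 57 controls were left out. Probe sets were named through the platform annotation: 20826 had 1 symbol, 436 several and 9780 none. Log2 of the deposited intensity was fitted over all 13 arrays with limma 3.58.1 in R 4.3.3, with 1 coefficient per group, a mean-variance trend and Benjamini-Hochberg adjustment over all 31042 probe sets at 0.05. Single values and correlations were tested with exact permutation tests (SciPy 1.17.1), both 2-sided. For correlations within groups the permutation p is approximate. The code was tested on simulated data. Alternatives covered scaling, offsets of 16 and 50, a filter, the groups fitted, the variance model, the methods' t-test, the replicate block, probe sets per gene and leaving out each array.

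Values on every array are given for the brightest member of each role, members at an unadjusted p under 0.05 in Met-fed hearts, the 4 largest rises and falls in L-NAME-fed hearts relative to all probe sets, and the T cell genes. From other lists up to 3 genes were named by smallest p. C1qa, C1qb and Gpr34 were added after their values were seen. The members and the 14 other lists were chosen with earlier results of these data known. Signals of different probe sets are not compared as RNA levels, and the number of arrays limits the precision. All 5 control arrays were used.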

Additional observations from a re-analysis of the deposited data

Results flagged for a closer look

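In 8 of the 93 sets of values (31 genes in 3 groups), 1 array lay far from the others of its group by Dixon's ratio, which chance gives in about 1 of 20 sets. L-NAME-fed replicate 4 was the high array in 4 of them, with log2 signals of 8.36 for Laptm5 (the other 3 arrays 7.73 to 7.77), 8.04 for Coro1a (7.24 to 7.37), 8.29 for Cd68 (7.64 to 7.68) and 6.10 for Cd3e (5.37 to 5.50). On that array the median deviation of the 29 members above background from their group means was 0.28, and that of all probe sets was -0.01. Met-fed replicate 1 was high for Aif1, at 8.48 (8.13 to 8.16). Met-fed replicate 2 was low for Cd68, at 8.61 (8.81 to 8.85), and Met-fed replicate 4 low for Laptm5, at 7.82 (7.93 to 7.95). Control replicate 1 was high for Tyrobp, at 8.55 (7.86 to 8.02).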

How the results depend on the processing

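All values below are for the 31 leukocyte genes. In L-NAME-fed against control hearts the count called higher was 5 after array median centring, against 11, and leaving out 1 array at a time gave 19 to 22 calls (8 to 12 higher, 9 to 11 lower), with 17 of the 21 calls kept in every such fit. The replicate block gave 21 calls (11 higher, 10 lower), but same-numbered arrays did not deviate together (r from -0.21 to 0.24 over 12 pairs), so the numbers were not taken to pair the arrays. In L-NAME-fed against Met-fed hearts the methods' t-test gave 12 calls (5 higher, 7 lower), against 19 (8 and 11), centring gave 5 higher, the block 19, and leaving out 1 array 17 to 20 (8 to 9 higher, 9 to 11 lower), with 17 of 19 kept in each. In Met-fed against control hearts 0 were called in every fit of the 31, and the count at an unadjusted p under 0.05, 6 on the deposited scale, was 3 to 8 with 1 array left out, with 3 without control replicate 3 or 5, and 4 with the block. Over all probe sets that t-test passed 2478 before correction and 0 after it. Of the 13 correlated pairs 4 passed, 0 to 4 with 1 array left out and 0 without Met-fed replicate 1.

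Directions turned in the following log2 differences, and the cause was not tested. In L-NAME-fed against control hearts, after quantile normalization Cd53 was -0.038, Lyz2 0.094, Gpr34 -0.297 and Cd74 0.092. After centring Cd53 was -0.376, Laptm5 -0.138, Gpr34 -0.326 and C1qc -0.269. With an offset of 16 Itgam was 0.044. With an offset of 50 Itgam was 0.023. Over all probe sets of the gene Ptprc was 0.191. With 1 array left out Cd53 ran from -0.099 to 0.126, Gpr34 from -0.087 to 0.207 and Itgam from -1.347 to 0.573. In Met-fed against control hearts, after quantile normalization Mrc1 was 0.024, Lyz2 0.023, Gpr34 -0.015 and Fcgr2b -0.010. After centring Cd53 was -0.023, Gpr34 -0.020, C1qa -0.010, C1qc -0.007, Fcer1g -0.014 and Fcgr2b -0.007. Over all probe sets of the gene Ptprc was 0.060. With 1 array left out Cd53 ran from -0.017 to 0.094, Vav1 from -0.318 to 0.027, Gpr34 from -0.166 to 0.240, C1qc from -0.119 to 0.164, Mrc1 from -0.085 to 0.026, Lyz2 from -0.087 to 0.013, C1qa from -0.076 to 0.140, Fcgr2b from -0.273 to 0.222, Cd74 from -0.194 to 0.052, Cd52 from -0.168 to 0.684 and Cd4 from -0.283 to 0.018. In L-NAME-fed against Met-fed hearts, after quantile normalization Cd53 was -0.059, Lyz2 0.071, Gpr34 -0.282 and Cd74 0.135. After centring Cd53 was -0.353, Gpr34 -0.306, C1qc -0.261 and Tyrobp -0.116. With an offset of 50 Laptm5 was 0.002. Over all probe sets of the gene Ptprc was 0.130 and Laptm5 0.782. With 1 array left out Laptm5 ran from -0.154 to 0.056, Cd53 from -0.133 to 0.091, Gpr34 from -0.141 to 0.265 and C1qc from -0.037 to 0.275. The dim members Itgam and Cx3cr1 are the least certain.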

Other observations

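Vascular mural cell genes were read beside the leukocyte genes as a list of 7 for smooth muscle and pericytes. Between L-NAME-fed and control hearts 4 were higher and 1 lower on the deposited scale, with the same counts after quantile normalization. Of all probe sets 28.7% were called higher and 17.0% lower, and 22.0% and 21.9% after quantile normalization. Pdgfrb, the receptor for platelet-derived growth factor B on pericytes, was higher by 2.29 ± 0.23 (limma adjusted p = 7.95e-07). Kcnj8, a potassium channel subunit of mural cells, was higher by 1.59 ± 0.14 (adjusted p = 2.20e-07) and Acta2, smooth muscle actin, by 1.82 ± 0.33 (adjusted p = 0.000255). Myh11 of the same list was lower, at -0.59 ± 0.22 (adjusted p = 0.0373), and Rgs5 (0.04 ± 0.11) and Cnn1 (0.58 ± 0.52) were not called. Of the dendritic cell genes called higher, Cd83, a maturation marker, differed by 0.81 ± 0.12 (adjusted p = 4.74e-05) and Batf3, a transcription factor of cross-presenting cells, was at least 2.34-fold higher (adjusted p = 0.00324), with means of 9.91 units in L-NAME-fed and 1.84 in control hearts, where it was above background on 1 of 5 arrays. The neutrophil genes called were Cxcr2 and Csf3r. Cxcr2 was at least 1.28-fold higher (adjusted p = 0.0158) and above background on 1 of 5 control arrays. Csf3r was at least 2.07-fold higher (adjusted p = 0.0397) and above background on 3 of them. The call of Csf3r was lost after quantile normalization, where its log2 difference was 0.82 (limma adjusted p = 0.212). S100a8 and S100a9, the abundant neutrophil calcium-binding proteins, differed by -0.35 ± 0.48 and -0.63 ± 0.47 and were not called. The adjusted p beside the folds of Batf3, Cxcr2 and Csf3r is limma's for the deposited signals. These folds, taken against background where control arrays lay under it, are lower bounds on the deposited scale only. They were not tested.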
